A study of Homo sapiens with 14 samples.

Results

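Clone EM2 of the human line SUM149PT was compared with clone E of the same line by ATAC-seq, in which a transposase cuts accessible DNA and the cut sites are sequenced. The comparison was fixed by the labels and used no measured value: it set the 2 libraries of EM2 against the 2 libraries of E, which are 4 of the 14 libraries of the series. The 2 libraries labelled Parental were used to say which of the clones had moved. SUM149PT is an established line of inflammatory breast cancer, labelled negative for the oestrogen and progesterone receptors. All libraries came from untreated cells, and the other groups were the clones EM1, EM3, M1 and M2, also with 2 libraries each. Each clone name stands for 1 clone, so a difference between EM2 and E is a difference between those clones. The labels do not explain the letters. Nor do they say whether a clone's libraries were grown apart, and p-values therefore reflect the spread between libraries, which may be technical.

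Carcinoma cells can pass, in part or fully, from an epithelial state, with cadherin junctions, desmosomes and keratins, to a mesenchymal state with vimentin and a looser attachment. This is the epithelial-mesenchymal transition (EMT), and the study's title concerns its intermediate state in breast cancer. Open chromatin marks promoters and enhancers that proteins can reach. An enhancer often opens or closes with the state of the cell, while many promoters stay open in all states.

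The count table held 65774 regions with a median width of 407 bp, and library totals were 12935538 and 12597345 counts in EM2, 8138944 and 8997141 counts in E, and 11102268 and 11878329 counts in Parental. Over all 14 libraries the totals ran between 8138944 and 16786823 counts. Values below are counts scaled per 1e6 effective counts with TMM (CPM), and differences are log2 values of EM2 minus E. One library stood apart. E replicate 1 carried signal at sites otherwise seen in M2. There were 12 tested regions without a count in any library of the remaining groups, EM2 included, and there E replicate 1 reached 20.9% of the M2 level and E replicate 2 reached 1.76% (95% exact Poisson bounds of 19.2% and 22.8%, and of 1.30% and 2.32%). These bounds cover counting error only, and 5 of the 12 regions lie in 1 stretch of chromosome 9. Results are therefore given with both E libraries and again against E replicate 2 alone.

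In EM2, 5333 regions were more accessible than in E, which is 8.11% of the 65771 tested, and 6491 were less accessible, which is 9.87% (edgeR quasi-likelihood test, adjusted p under 0.05). Together that was 11824 regions, or 18%. Against E replicate 2 alone 7471 regions passed, or 11.4%, of which 3582 were higher in EM2. A set of 6403 regions (9.74%) passed both times in the same direction, 2900 higher (4.41%) and 3503 lower (5.33%) in EM2. The count fell to 5977 without EM2 replicate 1 and to 6704 without EM2 replicate 2. Values of the clones did not overlap in 53.2% of all regions. In bulk libraries, fewer cells with a site open and a smaller opening per cell cannot be told apart, and neither can accessibility and the number of DNA copies.

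The promoters of the genes with some of the largest differences are shown next, since these are the sites where the region itself covered a gene start. They are from RefSeq (GRCh38.p14), from 250 bases before to 50 after the start, written 5′ to 3′ along the gene's own strand. Capitals mark CAGGTG or its reverse complement CACCTG, the E-box form that the repressors ZEB1 and SNAI2 are known to bind. The first 3 lay in regions that were less accessible in EM2.
CHI3L1 promoter (chr1:203186655-203186954, minus strand): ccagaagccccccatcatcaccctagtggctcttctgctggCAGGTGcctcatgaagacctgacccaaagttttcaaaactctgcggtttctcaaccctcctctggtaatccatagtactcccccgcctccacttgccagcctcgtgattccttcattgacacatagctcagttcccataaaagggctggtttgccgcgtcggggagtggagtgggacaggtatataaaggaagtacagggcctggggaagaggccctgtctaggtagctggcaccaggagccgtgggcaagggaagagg
SLCO4C1 promoter (chr5:102296235-102296534, minus strand): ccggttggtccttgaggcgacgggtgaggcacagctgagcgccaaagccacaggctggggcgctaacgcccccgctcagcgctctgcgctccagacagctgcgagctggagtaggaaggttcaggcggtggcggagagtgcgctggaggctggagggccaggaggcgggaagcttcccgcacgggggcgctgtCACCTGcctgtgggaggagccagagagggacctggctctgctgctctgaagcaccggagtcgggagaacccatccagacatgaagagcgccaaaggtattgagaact
GCA promoter (chr2:162343882-162344181, plus strand): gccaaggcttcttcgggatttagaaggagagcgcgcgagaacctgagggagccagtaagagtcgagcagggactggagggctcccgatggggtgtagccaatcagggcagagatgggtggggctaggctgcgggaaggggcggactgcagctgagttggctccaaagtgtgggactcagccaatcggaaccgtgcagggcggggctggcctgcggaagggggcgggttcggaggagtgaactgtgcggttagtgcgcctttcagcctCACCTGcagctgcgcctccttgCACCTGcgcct
The promoters printed here are chosen examples and do not stand for the rest. Of promoters whose region was lower in EM2, 22.6% held this E-box. It was in 16.0% of those whose region was higher and in 18.2% of all promoters in regions. The CLDN4 promoter, in a lower region, lacks it, and that of EREG, a growth factor gene, in a higher region, holds it. The next 3 lay in regions that were more accessible in EM2, and none holds this E-box in the window.
ADARB2 promoter (chr10:1737476-1737775, minus strand): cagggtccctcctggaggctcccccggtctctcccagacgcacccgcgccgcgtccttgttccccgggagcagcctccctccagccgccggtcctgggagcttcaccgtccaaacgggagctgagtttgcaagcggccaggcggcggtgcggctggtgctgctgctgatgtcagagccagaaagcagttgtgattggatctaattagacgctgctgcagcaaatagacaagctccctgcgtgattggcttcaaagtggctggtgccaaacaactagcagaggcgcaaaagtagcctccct
GUCY1B1 promoter (chr4:155758771-155759070, plus strand): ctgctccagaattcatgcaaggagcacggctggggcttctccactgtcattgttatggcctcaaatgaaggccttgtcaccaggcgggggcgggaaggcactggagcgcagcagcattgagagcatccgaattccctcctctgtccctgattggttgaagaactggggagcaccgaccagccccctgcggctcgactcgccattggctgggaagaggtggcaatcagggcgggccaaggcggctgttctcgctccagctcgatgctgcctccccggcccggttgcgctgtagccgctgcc
MYO18A promoter (chr17:29140340-29140639, minus strand): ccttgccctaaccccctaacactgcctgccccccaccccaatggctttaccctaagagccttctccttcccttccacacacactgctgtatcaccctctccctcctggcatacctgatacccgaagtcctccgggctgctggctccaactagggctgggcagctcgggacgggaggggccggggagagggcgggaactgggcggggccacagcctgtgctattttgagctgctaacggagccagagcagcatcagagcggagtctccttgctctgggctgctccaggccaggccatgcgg

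At the CHI3L1 promoter the region (hg38, chromosome 1, 203186483 to 203187287, over the gene start) stood at 4.32 and 3.90 CPM in the EM2 libraries, 49.7 and 50.7 CPM in the E libraries, and 37.1 and 29.4 CPM in Parental. CHI3L1 encodes a secreted chitinase-like glycoprotein of inflamed and cancerous tissue. EM2 was far below both other groups with no overlap, a log2 difference of -3.61 ± 0.27 (SE, edgeR adjusted p = 1.9e-05), or -3.62 against E replicate 2 alone. M1 and M2 were low there as well, at 1.46 and 1.72 CPM on average. A region outside the gene, 13102 bases from its start, behaved otherwise: it had 3.93 and 2.96 CPM in EM2, 22.1 and 24.6 CPM in E, and 2.99 and 2.38 CPM in Parental. There E, not EM2, stood apart from Parental. The last CHI3L1 region did not pass (-0.61, edgeR adjusted p = 0.477).

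Of the 9 regions of LURAP1L, 8 were lower in EM2, by unequal amounts. The region 2723 bases from the gene start (chromosome 9, 12771851 to 12772297) had 4.32 and 6.94 CPM in EM2, 66.5 and 58.2 CPM in E, and 27.7 and 35.3 CPM in Parental. EM2 was below Parental by 2.48 on the log2 scale (edgeR adjusted p = 0.000142) and E above it by 0.98 (adjusted p = 0.0139), so the clones moved apart on opposite sides of Parental. The region just inside the gene (12775714 to 12776833) differed far less, with 74.7 and 64.5 CPM in EM2 against 115 and 117 CPM in E. The surrounding 10 Mb of chromosome 9 had a median difference of -0.80. With that median taken off, 3 regions still exceeded 95% bounds from their SE, a limit without a new test or adjusted p. These were the one above at -2.67 and the ones 35706 and 33858 bases from the gene at -2.83 and -1.79. The region just inside the gene turned to 0.06. Other LURAP1L regions lost their call when 1 library was left out: those starting at 12774866 (E replicate 2 or EM2 replicate 2), 12784371 (E replicate 2 or either EM2 replicate), 12814125 (these or Parental replicate 1) and 12817618 (EM2 replicate 1). The region just inside the gene lost it without EM2 replicate 2.

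ADARB2, a brain-expressed member of the RNA-editing deaminase family, was the marker that was higher in EM2. The region over its start (chromosome 10, 1737271 to 1738017) had 30.7 and 24.2 CPM in EM2, 2.67 and 2.75 CPM in E, and 16.4 and 14.7 CPM in Parental. The groups did not overlap, and the difference was 3.34 ± 0.25 (SE, edgeR adjusted p = 1.62e-05), or 3.32 against E replicate 2 alone. E was below Parental by 2.52 on the log2 scale and EM2 above it by 0.82. The window median there was 1.15, and 2.19 remained without it. The other ADARB2 region, inside the gene, passed at 1.44 (edgeR adjusted p = 0.0422) but not without E replicate 2, either EM2 library or either Parental library. With the window median removed 0.29 was left, within 95% bounds from its SE.

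**Figure D1:**
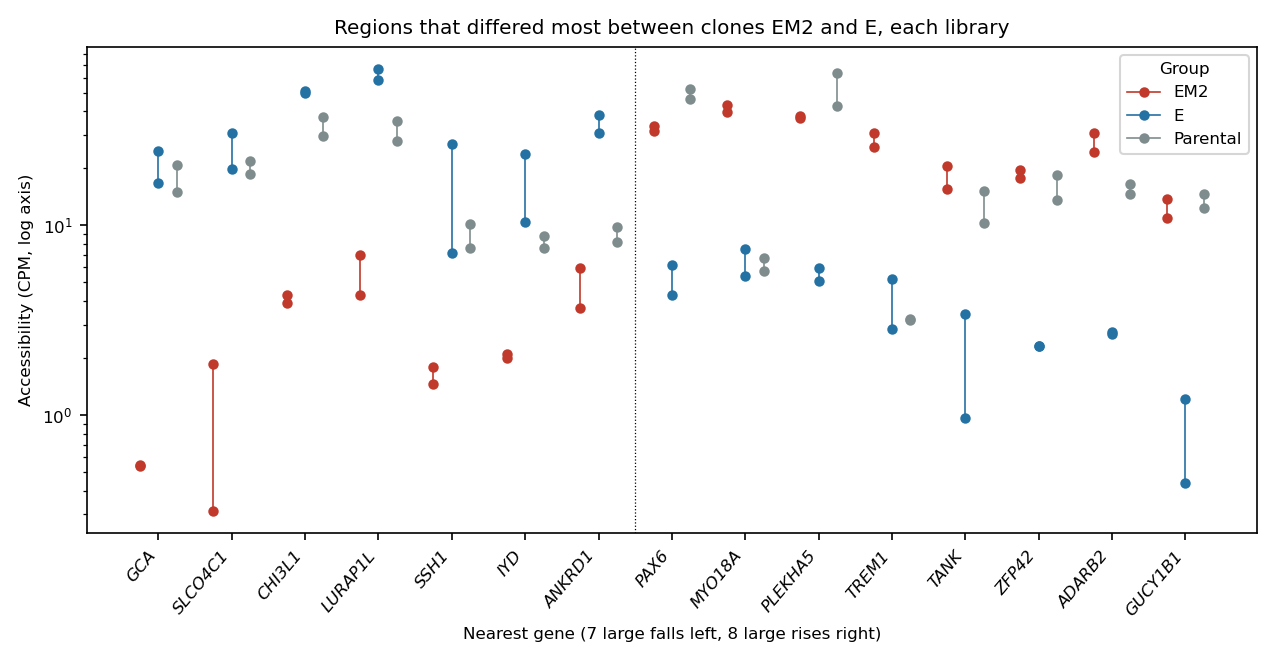
Accessibility in CPM on a log axis of 7 large falls (left) and 8 large rises (right) in EM2 relative to E among regions within 10 kb of a gene whose signal exceeded the median, under the nearest gene; each point is 1 library and each line joins the 2 libraries of EM2, E or Parental. The EM2 points lie apart from the E points in all 15 regions, and Parental sits near E in some and near EM2 in others.

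The other large falls in EM2 fell into sites where EM2 had left the Parental level and sites where E had risen above it too. GCA, which encodes grancalcin, a calcium-binding protein of neutrophils, had 0.540 and 0.546 CPM at its start in EM2 (chromosome 2, 162343827 to 162344456), 24.6 and 16.7 CPM in E, and 15.0 and 20.9 CPM in Parental. Among regions within 10 kb of a gene whose signal exceeded the median, it fell most (-5.22 ± 0.36, edgeR adjusted p = 1.29e-05; -4.92 against E replicate 2 alone). All other groups were above 10 CPM on average, so EM2 stood alone. SLCO4C1, an organic anion transporter, had 1.85 and 0.312 CPM at its start in EM2, 30.6 and 19.9 CPM in E, and 18.6 and 21.8 CPM in Parental (-4.53 ± 0.52, edgeR adjusted p = 0.000177). EM2 was again the group apart, with M1 and M2 both near 13.9 CPM. A region 9079 bases from ANKRD1, a target of YAP and TEAD, had 5.93 and 3.66 CPM in EM2, 38.0 and 30.5 CPM in E, and 8.16 and 9.84 CPM in Parental. Here E was above Parental by 1.93 (edgeR adjusted p = 0.0123), while EM2 minus Parental was -0.91 and did not pass (adjusted p = 0.237). Regions inside SSH1, a cofilin phosphatase, and IYD, a deiodinase, fell by 3.36 and 3.05; E replicate 1 had 26.7 CPM at SSH1 and E replicate 2 had 7.14, and the SSH1 difference was -2.13 against E replicate 2 alone.

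At 6 of the 8 largest rises E was below Parental. GUCY1B1, a subunit of the soluble guanylate cyclase that senses nitric oxide, had 13.8 and 10.9 CPM at its start in EM2 (chromosome 4, 155758789 to 155759334), 1.21 and 0.439 CPM in E, and 14.6 and 12.4 CPM in Parental. EM2 overlapped Parental and E was the group apart (EM2 minus E 3.91 ± 0.37, edgeR adjusted p = 6.0e-05; 4.78 against E replicate 2 alone). At PAX6 E was again far below Parental, and EM2 slightly so (adjusted p = 0.0476). This region of PAX6, a developmental transcription factor gene, had 33.4 and 31.3 CPM in EM2, 6.19 and 4.28 CPM in E, and 46.4 and 52.0 CPM in Parental. A region inside PLEKHA5 had 36.9 and 37.8 CPM in EM2, 5.10 and 5.93 CPM in E, and 42.4 and 63.5 CPM in Parental. Regions in ZFP42, a pluripotency-linked zinc finger gene, and TANK, an adaptor of NF-kB signalling, rose by 3.02 and 3.01, and both were below Parental in E.

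At 2 of the 8 rises EM2 was the clone that had moved. MYO18A, an unconventional myosin, had 42.8 and 39.5 CPM at its start in EM2 (chromosome 17, 29140034 to 29140692), 7.52 and 5.38 CPM in E, and 6.71 and 5.77 CPM in Parental. E lay at the Parental level there, and 9 of the 12 regions of MYO18A were higher in EM2 with and without E replicate 1. The surrounding stretch, 25 to 30 Mb of chromosome 17, had a median difference of 0.51, with 0.54 in EM2 minus Parental and 0.13 in E minus Parental. TREM1, a receptor of myeloid cells, had 30.6 and 25.8 CPM inside the gene in EM2, 5.22 and 2.86 CPM in E, and 3.17 and 3.22 CPM in Parental. The other clones averaged 10.9 CPM (EM1), 21.4 CPM (EM3), 24.5 CPM (M1) and 7.75 CPM (M2) there.

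Where the test could tell which clone was further from Parental, it was mostly E at the regions higher in EM2 and mostly EM2 at the lower ones. EM2 differed from Parental in 6043 regions (9.19%), of which 4056 were lower (6.17%) and 1987 higher (3.02%), and E differed in 7610 (11.6%), of which 4147 were lower (6.31%) and 3463 higher (5.27%); both comparisons use the same Parental libraries. Which clone differed from Parental in more regions changed with the libraries used: without E replicate 1 it was 7383 regions in EM2 and 3391 in E, and without Parental replicate 2 it was 2519 in EM2 and 1235 in E. Without EM2 replicate 1 the counts were 2393 in EM2 and 7419 in E, without EM2 replicate 2 they were 3880 and 7420, and without Parental replicate 1 they were 2173 and 2264. The direct test set the midpoint of EM2 and E against Parental, and 8.11% of all regions passed it, 2.42% with the midpoint higher and 5.69% with it lower. Among the 5333 regions higher in EM2, E was further from Parental in 707 and EM2 in 238. Among the 6491 lower regions, EM2 was further in 965 and E in 251. In both directions the larger count is the one with the midpoint below Parental. That was also the more common case over all regions, with 3740 lower and 1592 higher, so these splits are to be read beside it. The other 4388 higher and 5275 lower regions were not told apart. In the regions that passed with and without E replicate 1, the median of the higher ones was 0.41 in EM2 minus Parental and -0.96 in E minus Parental. The median of the lower ones was -1.19 in EM2 minus Parental and 0.49 in E minus Parental. In 46 higher and 101 lower regions the clones were on opposite sides of Parental, each past the threshold.

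The order of these counts held under 15 of 16 alternatives, but their size did not. Leaving out Parental replicate 1 left 42 higher regions with EM2 further and 170 with E further, and 245 lower regions with EM2 further and 29 with E further. Leaving out Parental replicate 2 left 33 and 128 of the higher regions, and 246 and 27 of the lower ones, in the same order. Without EM2 replicate 1 they were 112 and 324 higher and 539 and 78 lower, and without EM2 replicate 2 they were 186 and 371 higher and 747 and 111 lower. Without E replicate 2, where E is represented only by the library with the M2-like signal, the order among the lower regions turned round, to 838 with EM2 further and 1248 with E further.

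**Figure D2:**
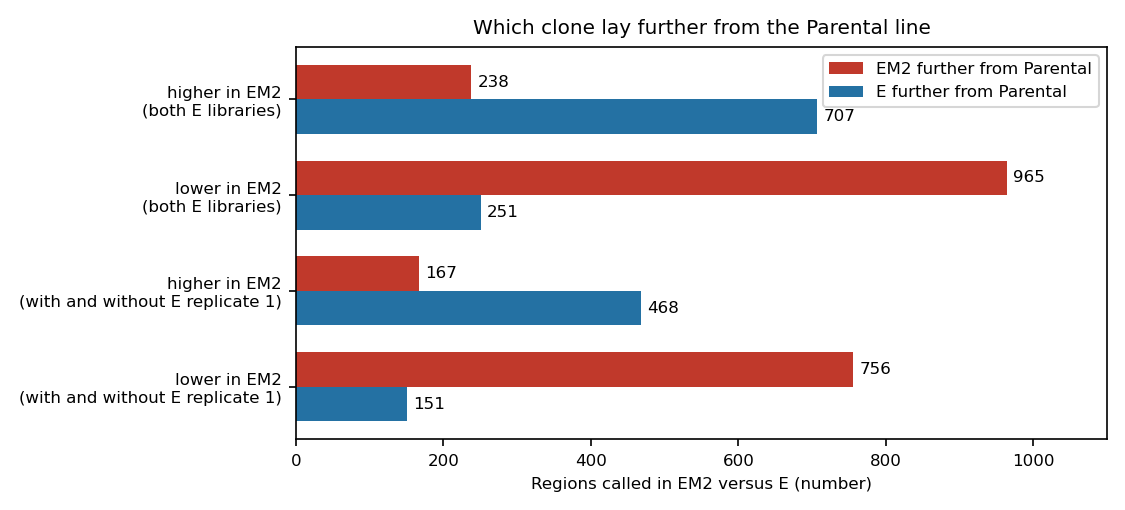
Number of regions called in EM2 versus E in which EM2 (red) or E (blue) was significantly further from Parental, by direction and by the set of regions. Of the regions higher in EM2, 238 had EM2 further and 707 had E further; of the lower ones, 965 had EM2 further and 251 had E further.

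The 2988 lower regions whose call was lost without E replicate 1 had high signal in M2. Their median was 1.62 CPM in EM2, 8.37 CPM in E replicate 1, 3.73 CPM in E replicate 2 and 15.9 CPM in M2. The part of that signal in each single region was not tested. High M2 values also stood at some falls that kept their call against E replicate 2 alone, among them ROR1, a receptor of Wnt5a, with 0.154 and 0.312 CPM in EM2 against 7.89 CPM in E replicate 1 and 1.54 CPM in E replicate 2, and SMAD3, the TGF-beta effector, with 0.617 and 0.546 CPM in EM2 against 8.98 CPM in E replicate 1 and 2.196 CPM in E replicate 2. M2 averaged 48.9 CPM at the ROR1 site and 30.7 CPM at the SMAD3 site. Against E replicate 2 alone ROR1 passed at -2.67 and SMAD3 at -1.90. One of the calls that were lost is the start of TP63. This start of TP63, the basal transcription factor gene, had 0.385 and 0.234 CPM in EM2, 4.97 CPM in E replicate 1, 0.769 CPM in E replicate 2 and 29.0 CPM in M2. It passed with both E libraries (-3.15, edgeR adjusted p = 0.0113) and not against E replicate 2 alone (-1.28, adjusted p = 0.261), nor without either EM2 library or with loess offsets.

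Of the epithelial gene starts read, CLDN4 fell whichever library was left out, and the calls of EPCAM, ELF3 and KRT8 were lost when 1 library was left out. The annotation gave no strand for CDH1, EPCAM, GRHL2, OVOL2, ESRP1, SNAI2, TWIST1 and CBFB, and for these the region at a gene end within 1 kb stands in for the start. The start of CLDN4, a tight junction claudin, had 14.7 and 11.2 CPM in EM2, 32.3 and 28.2 CPM in E, and 37.9 and 27.1 CPM in Parental. It fell by 1.22 (edgeR adjusted p = 0.00275), with EM2 further from Parental. EPCAM, an epithelial adhesion molecule, had 26.9 and 33.2 CPM in EM2 against 43.2 and 56.3 CPM in E (-0.73, adjusted p = 0.016). That call was lost without E replicate 2 or EM2 replicate 1, and -0.31 remained with the window median removed. At their starts ELF3, an epithelial ETS factor, fell by 0.62 and KRT8, a simple-epithelium keratin, by 0.71; ELF3 lost its call without E replicate 2 or either EM2 library and had -0.07 left with the window median removed, and KRT8 without E replicate 1, Parental replicate 1 or either EM2 library. CDH1 (E-cadherin), GRHL2, an epithelial transcription factor, and the basal keratin KRT5 did not pass, at -0.74, -0.67 and -0.73, and each was below Parental in EM2 (adjusted p = 0.0482, 0.0449 and 0.0316). OVOL2 (0.05) and ESRP1 (0.08), an epithelial transcription factor and a splicing factor, had overlapping values in EM2 and E. In M1 all of CDH1, GRHL2, OVOL2, ESRP1, CLDN4 and EPCAM averaged between 0.822 and 9.63 CPM, below their Parental values.

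The next sites are the falls with the smallest p in each epithelial list, so their size is set by that choice. A region inside CDH1 (chromosome 16, 68778493 to 68779242, 41201 bases from a gene end) had 8.25 and 8.88 CPM in EM2, 34.2 and 34.5 CPM in E, and 42.3 and 34.5 CPM in Parental. EM2 minus E was -2.00 ± 0.26 (SE, edgeR adjusted p = 0.000383), EM2 minus Parental was -2.16 (adjusted p = 0.000404), and M1 and M2 were at 0.915 and 1.11 CPM on average. A region 35665 bases from ELF3 had 8.71 and 7.17 CPM in EM2, 45.4 and 42.4 CPM in E, and 49.4 and 35.1 CPM in Parental (-2.46, adjusted p = 8.63e-05). PKP1, a desmosomal plakophilin, had 5.78 and 6.47 CPM inside the gene in EM2 against 19.0 and 21.5 CPM in E, with Parental at 22.9 and 23.8 CPM. The only region of KRT14, a basal keratin, had 5.55 and 3.27 CPM in EM2 against 18.8 and 17.0 CPM in E. At all 4 sites EM2 was lower than Parental as well (adjusted p of 0.00251 or less), and E minus Parental did not pass.

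Counts over the gene lists put these sites beside the background of 8.11% higher and 9.87% lower. These lists, like the named genes, were chosen with earlier results of these data known, and no test was run over them. The background itself moved when 1 library was left out. Over all regions the higher and lower shares were 5.45% and 5.91% without E replicate 1, 5.6% and 12% without E replicate 2, 4.23% and 4.86% without EM2 replicate 1, and 5.08% and 5.11% without EM2 replicate 2. They were 6.88% and 8.44% without Parental replicate 1, and 5.87% and 9.51% without Parental replicate 2. A list's loss of calls below is to be read beside these shares. Of 117 desmosome and hemidesmosome regions 1 was higher and 11 lower in EM2 (median -0.25), with 3 of the falls in PKP1. With window medians removed 0 were higher and 7 lower. Of 49 keratin regions 1 was higher and 6 lower (median -0.19). The median over all regions was -0.02. For these 2 lists the lower shares of 9.40% and 12.2% were near the background. The higher shares of 0.855% and 2.04% were below its 8.11%, each resting on 1 region. Epithelial adhesion genes had 7 higher and 8 lower of 88, and epithelial transcription and splicing factors 8 higher and 10 lower of 105, close to the background in both directions. The desmosome falls were 7 without EM2 replicate 1 and 4 without EM2 replicate 2, and the keratin falls were 3 without E replicate 1 or EM2 replicate 2. The factors had 3 rises without EM2 replicate 1, and 5 falls without that library and 4 without EM2 replicate 2. The adhesion rises were 0 to 3 whenever 1 library was left out, and the adhesion falls were 4 without EM2 replicate 2.

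Mesenchymal effector genes had 25 higher regions of 121, or 20.7%, and 10 lower, or 8.26%. Without E replicate 1 there were 17 higher and 4 lower, and without EM2 replicate 1 there were 15 and 3; without EM2 replicate 2 the falls were 4. The rises lay mainly in CD44 (8 of 12 regions), PDGFC (6 of 22, with 2 lower) and VIM (4 of 7), while CDH2, CDH11 and ACTA2 had 2 lower regions each and no higher one. The start of VIM, the vimentin gene (chromosome 10, 17228163 to 17228903), had 52.6 and 41.4 CPM in EM2, 21.7 and 9.55 CPM in E, and 17.8 and 24.5 CPM in Parental. EM2 was above E by 1.59 (edgeR adjusted p = 0.00284) and above Parental by 1.15 (adjusted p = 0.0212). It lay, like ADARB2, in a stretch of chromosome 10 with a median difference of 1.15, and 0.44 was left after removal, within 95% bounds from its SE. The start of CD44, the hyaluronan receptor gene, had 60.6 and 54.1 CPM in EM2, 18.1 and 21.2 CPM in E, and 37.1 and 48.0 CPM in Parental, a difference of 1.54, with 0.60 left after removal of the window median. A region 26847 bases from CD44 had 106 and 95.3 CPM in EM2 against 17.3 and 21.6 CPM in E, and there EM2 overlapped Parental at 71.1 and 103 CPM. With window medians removed the list had 15 higher and 9 lower of its 121 regions, beside 4230 higher and 5837 lower of all 65771 regions.

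ZEB1, SNAI2 and TWIST1, known drivers of the transition, did not pass at their starts. ZEB1 had 22.0 and 21.2 CPM in EM2 against 14.9 and 16.1 CPM in E (0.47, edgeR adjusted p = 0.0699), SNAI2 differed by -0.04 and TWIST1 by 0.38. Nor did the matrix gene FN1 (0.47) pass, or RUNX2 (0.71) and its partner CBFB (-0.03). CDH2 and ZEB2 had no region at the gene start. Of the 58 regions of EMT transcription factors 5 were higher and 1 lower, and of these only 2 rises passed also against E replicate 2 alone. One of them, 40449 bases from PRRX1, had 12.0 and 11.4 CPM in EM2 against 5.22 and 3.84 CPM in E, and lost its call without E replicate 2. CDH11, a mesenchymal cadherin, went the other way inside the gene, with 0.771 and 0.623 CPM in EM2, 3.15 and 6.04 CPM in E, and 28.7 CPM in M1.

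**Figure D3:**
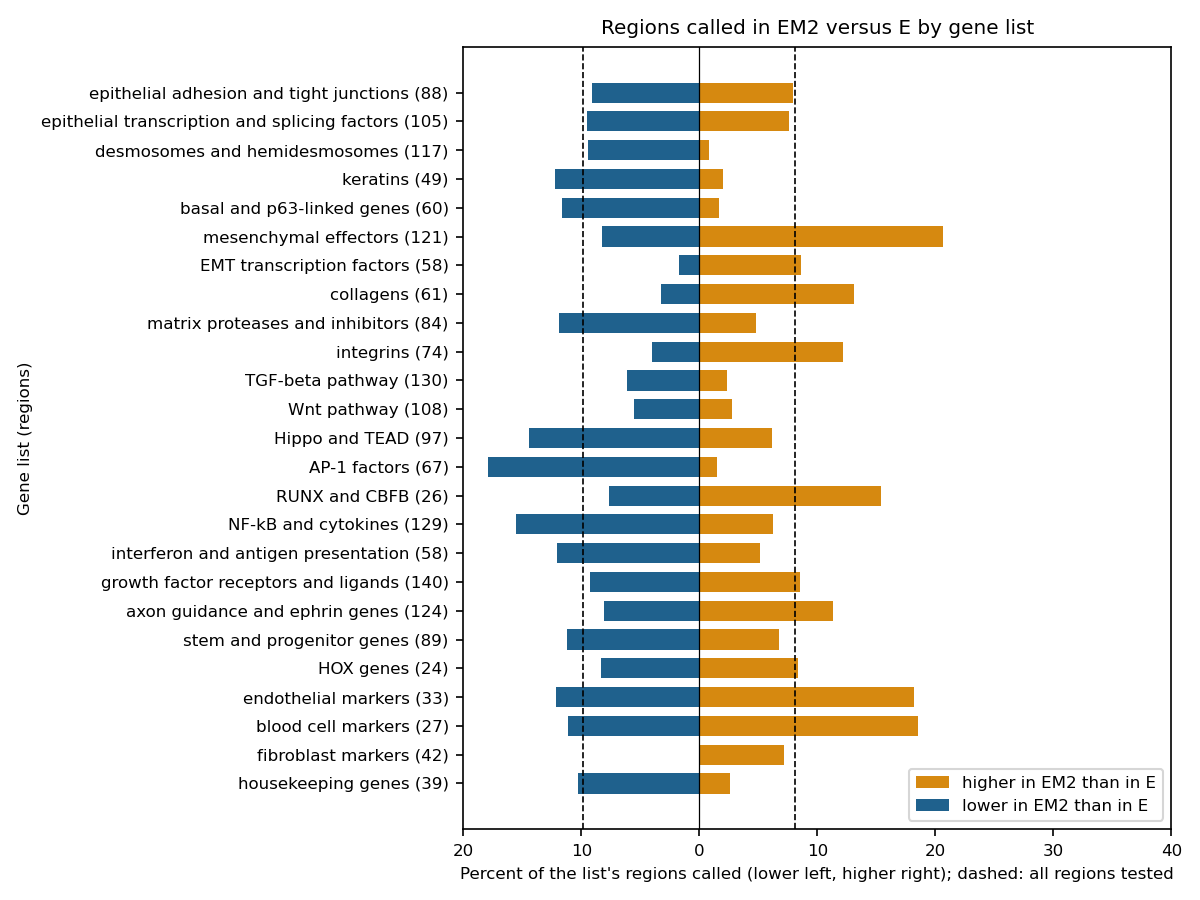
Percent of the regions of 25 gene lists that were called lower (blue, left) or higher (orange, right) in EM2 than in E, with the number of regions in brackets; the dashed lines are the 9.87% and 8.11% of all regions tested. The plot holds 25 of the 26 lists; mesenchymal effectors reach 20.7% higher and AP-1 factors 17.9% lower.

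Single luminal genes were read without a list count. A region inside PGR, the progesterone receptor gene, was lower in EM2: it had 0.925 and 0.0779 CPM in EM2, 10.4 and 5.93 CPM in E, and 5.17 and 5.85 CPM in Parental. Both regions of GATA3, a luminal transcription factor, were higher in EM2, with a median of 1.27; they lie in the first 10 Mb of chromosome 10, where the window median was 1.15. ELF5, another luminal factor gene, had 3 higher regions and 1 lower of 5, and 1 of the rises passed also against E replicate 2 alone.

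Several signalling lists had more lower than higher regions, and so did all regions tested, with 9.87% lower and 8.11% higher. Their counts with 1 library left out are to be read beside the shares over all regions given above. AP-1 factor genes had 1 higher and 12 lower regions of 67, or 17.9% lower, and 6 of the falls were among the 8 regions of BATF3, a dimer partner of JUN. The region at a gene end of BATF3 had 17.1 and 13.3 CPM in EM2, 38.7 and 39.8 CPM in E, and 23.8 and 22.1 CPM in Parental (-1.37, edgeR adjusted p = 0.000865). E was above Parental by 0.77 (adjusted p = 0.0262). The median of the AP-1 list was -0.12 with both E libraries and 0.03 against E replicate 2 alone, where 9 regions were lower; 8 were lower without EM2 replicate 1 and 7 without EM2 replicate 2. NF-kB and cytokine genes had 8 higher and 20 lower of 129, or 15.5% lower, with a median of -0.23. Against E replicate 2 alone there were 1 higher and 20 lower, and the falls were 10 without EM2 replicate 1, 9 without EM2 replicate 2 and 13 without Parental replicate 1. Of the 20, 6 were at IL24, a cytokine gene, 3 at NFKBIZ, an inducible NF-kB cofactor, and 2 at CHI3L1. The window of CHI3L1, 200 to 210 Mb of chromosome 1, had a median of -0.55. With window medians removed the NF-kB and cytokine list had 7 higher and 17 lower regions, and the AP-1 list 1 higher and 9 lower. A region 19476 bases from CXCL3, a neutrophil chemokine, rose instead, with 6.40 and 9.90 CPM in EM2 against 0.485 and 0.769 CPM in E. Hippo and TEAD genes had 6 higher and 14 lower of 97 (median 0.03), with all 4 ANKRD1 regions lower, 2 of them also against E replicate 2 alone, and 3 lower at each of TEAD4 and FRMD6; without E replicate 1 the falls were 6, without EM2 replicate 1 also 6 and without EM2 replicate 2 they were 7.

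Interferon and antigen presentation genes had 3 higher and 7 lower regions of 58, with 4 falls without EM2 replicate 1 and 3 without EM2 replicate 2. A region 44457 bases from IRF1, an interferon response factor, had 16.5 and 18.5 CPM in EM2 against 49.6 and 49.3 CPM in E and 30.7 and 30.5 CPM in Parental. EM2 was below Parental (edgeR adjusted p = 0.0345), and E was above it without passing (adjusted p = 0.053).

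Among matrix and guidance genes single sites differed most. A region 20714 bases from COL6A3, a collagen VI chain, had 30.4 and 24.2 CPM in EM2, 0.607 and 0.879 CPM in E, and 1.27 and 0.933 CPM in Parental. EM2 minus E was 5.17 ± 0.36 (SE, edgeR adjusted p = 1.29e-05) and EM2 minus Parental was 4.62 (adjusted p = 2.12e-05). EM3 and M1 averaged 23.1 and 40.5 CPM there, and EM1 and M2 averaged 1.67 and 0.955 CPM. A region inside PLXNA2, a semaphorin co-receptor, was the reverse: 0.154 and 0.156 CPM in EM2, 12.5 and 11.1 CPM in E, and 0.635 and 0.594 CPM in Parental. Here E was above Parental by 4.24 (edgeR adjusted p = 0.000193). A region 21977 bases from BMP2, a ligand of the TGF-beta family, had 8.17 and 8.18 CPM in EM2, 1.33 and 0.769 CPM in E, and 6.08 and 7.55 CPM in Parental, and E was the clone below Parental. Regions in FGFR2 and LGR5, a growth factor receptor and a stem cell receptor, were lower in EM2, with 0.462 and 1.17 CPM against 7.76 and 9.01 CPM in E, and 2.08 and 3.51 CPM against 12.9 and 18.3 CPM in E. All 5 regions of FBLN1, a matrix fibulin gene named for having 5 or more regions called in 1 direction, were lower in EM2, with a median of -3.71.

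The counts of the remaining lists are to be read beside the 8.11% higher and 9.87% lower of all regions. Their higher shares ran from 1.67% (basal and p63-linked genes) to 18.5% (blood cell markers). Their lower shares ran from 0% (fibroblast markers) to 12.1% (endothelial markers). Many of these counts moved when 1 library was left out, and the ranges in brackets are over these 6 omissions. Collagens had 8 higher regions (4 to 9) and 2 lower (1 to 6) of 61. Integrins had 9 higher (2 to 7) and 3 lower (1 to 5) of 74, with 6 of the 9 rises at ITGB1, the common beta chain, in a window with a median of 0.56. Matrix proteases had 4 higher (3 to 5) and 10 lower (1 to 13) of 84, with 1 fall without EM2 replicate 1 and 4 without EM2 replicate 2. Basal and p63-linked genes had 1 higher (0 to 2) and 7 lower (1 to 8) of 60, with 1 fall without E replicate 1 or EM2 replicate 2 and 2 without EM2 replicate 1. The TGF-beta pathway had 3 higher (1 to 4) and 8 lower (1 to 11) of 130, with 1 fall without E replicate 1 or EM2 replicate 2. The Wnt pathway had 3 higher (0 to 2) and 6 lower (3 to 10) of 108.

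RUNX and CBFB had 4 higher (3 to 6) and 2 lower (1 to 2) of 26, or 15.4% and 7.69%, beside 8.11% and 9.87% of all regions. Axon guidance genes had 14 higher (5 to 12) and 10 lower (3 to 17) of 124, and growth factor genes 12 higher (5 to 13) and 13 lower (3 to 12) of 140. Stem and progenitor genes had 6 higher (2 to 5) and 10 lower (4 to 15) of 89, and HOX genes 2 higher (0 to 1) and 2 lower (0 to 2) of 24. Among the markers of other cells, endothelial ones had 6 higher (2 to 6) and 4 lower (0 to 4) of 33, blood cell ones 5 higher (2 to 3) and 3 lower (0 to 3) of 27, and fibroblast ones 3 higher (1 to 4) and 0 lower (0 to 6) of 42. Housekeeping genes had 1 higher (1 to 2) and 4 lower (0 to 7) of 39. The highest counts of falls in the protease, basal, TGF-beta, Wnt, axon guidance, stem, fibroblast and housekeeping lists were without E replicate 2, where E is the library with the M2-like signal. Some genes stand on several lists.

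The regions that differed were also read against M1, whose comparison with Parental shares no library with EM2 minus E; this was chosen after the data were seen. Of the 3503 regions lower in EM2 with and without E replicate 1, 56.1% were lower in M1 than in Parental, beside 23.4% of all regions, and 14.9% were higher in M1. Of the 2900 higher regions, 40.7% were higher in M1 than in Parental, beside 19% of all regions, and 13% were lower. M2 did not go with M1 in both directions. Medians of the higher regions were 15.3 CPM in EM2, 10.8 in Parental, 17.3 in M1 and 6.65 in M2. Medians of the lower regions were 3.10 CPM in EM2, 8.80 in Parental, 3.05 in M1 and 5.21 in M2. Group means of log2 CPM correlated at 0.716 between EM2 and M1, 0.576 between E and M1, and 0.558 between Parental and M1. These correlations are over regions that share their libraries. EM2 correlated at 0.839 with E and at 0.898 with Parental. M2 correlated at 0.368 with EM2 and at 0.461 with E. By library, the M2 libraries were at 0.542 and 0.543 with E replicate 1, and at 0.35 and 0.364 with E replicate 2. M1 was also below Parental in some long stretches where EM2 was, such as 50 to 60 Mb of chromosome 5 (-0.69 in M1, -1.14 in EM2). The part of such stretches in the shares above was not tested.

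The lower regions lay away from gene starts more often than regions in general. Of all regions 19.5% lay within 1 kb of a protein-coding gene start (or end, where no strand was given), against 15.5% of the higher and 9.97% of the lower ones. In the set that passed with and without E replicate 1 the shares were 18.7% of the higher and 9.71% of the lower. Among promoters that lay in a region, CAGGTG on either strand was found in 22.6% of the 716 whose region was lower in EM2, 16.0% of the 998 whose region was higher, and 18.2% of all 13955. With the regions that also passed without E replicate 1 it was 27.4% of 391 and 16.0% of 674. The AP-1 motif TGANTCA was in 10.1% of the lower, 8.22% of the higher and 6.55% of all of them, or 8.70% and 6.38% in the stricter set. Promoters outside regions are not in these counts, those of chromosome 8 were left out, and the letters say nothing of a bound factor.

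Part of the difference ran over long stretches of chromosomes. Medians in 10 Mb windows with at least 20 regions lay between -1.25 and 1.15 in 302 windows, with quartiles at -0.14 and 0.11. In 20 windows the median was 0.5 or more, and these held 30.7% of the rises and 7.39% of all regions. In 19 of them E was further from Parental than EM2. The first 10 Mb of chromosome 10 had a median of 1.15, made of 0.09 in EM2 minus Parental and -1.04 in E minus Parental. The next 10 Mb had 1.15, from 0.15 in EM2 and -1.04 in E, and 30 to 40 Mb of chromosome 11, which holds PAX6, WT1 and CD44, had 0.95, from 0.06 in EM2 and -0.92 in E. In 12 windows the median was -0.5 or less, and these held 12.4% of the falls and 3.56% of all regions. In 8 of them EM2 was further from Parental. The lowest was 50 to 60 Mb of chromosome 5 at -1.25, with -1.14 in EM2 and 0.08 in E. Whether DNA copies differ there was not tested, since no DNA library was used here. With window medians removed 4230 higher and 5837 lower of the called regions kept their direction and exceeded 95% bounds from their SE. That is a looser limit than the adjusted p, and no new test was run.

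**Figure D4:**
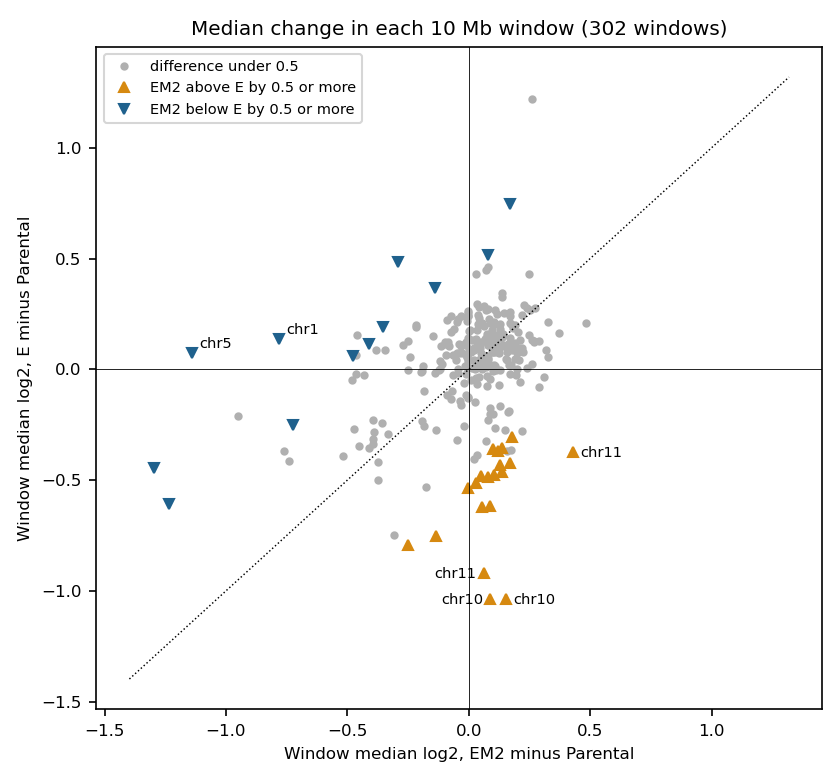
Each point is 1 of 302 windows of 10 Mb; the horizontal axis is the median log2 difference of EM2 minus Parental and the vertical axis that of E minus Parental, with the dotted line where both are equal. The orange windows, higher in EM2, lie mostly near 0 horizontally and below 0 vertically, down to -1.04; the blue window labelled chr5, which has the lowest median of EM2 minus E, lies at -1.14 horizontally.

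A stretch of chromosome 9 had signal in EM2 and nearly none in Parental. It was singled out after the data were seen and holds 24 regions between 25677423 and 29333075. Their summed counts were 2983 and 2768 in EM2, 646 in E replicate 1, 48 in E replicate 2, and 9 and 27 in Parental. EM1 had 0 and 1 and EM3 6 and 3, while M1 had 2171 and 3480 and M2 had 3336 and 4877. Of the 24 regions 14 were higher in EM2 with both E libraries (median 2.61) and 22 against E replicate 2 alone (median 5.88). The start of IFT74, a gene of the cilium transport machinery, is an example, with 323 and 332 counts in EM2, 109 counts in E replicate 1 and 9 counts in E replicate 2; it passed only against E replicate 2 alone (4.67, edgeR adjusted p = 7.26e-05). The same stretch holds TUSC1, CAAP1, 2 regions near TEK, an endothelial receptor gene, and MOB3B. In the 5 regions just before this stretch only M2 (750 and 1113 counts) and E (134 and 14 counts) had any. These 5 are among the 12 regions used above for the M2-like signal in E, so their counts are not a separate observation. The part of that signal in the E counts of the stretch was not tested. In the 23 regions before those, and in the 23 regions after the stretch up to 33 Mb, all 14 libraries had counts. How a stretch nearly without counts in Parental came to have counts in EM2 was not tested.

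Few markers of other cells had a region at a gene start, or at an end where no strand was given. Of 14 endothelial markers 1 had a region at its start, ROBO4, and its regions summed to 88.3 and 75.3 CPM in EM2, 43.9 and 47.7 CPM in E, and 91.1 and 74.8 CPM in Parental; PECAM1, CDH5 and VWF had none. Of 15 blood cell markers 5 had one, with sums of 232 and 206 CPM in EM2, 152 and 149 CPM in E, and 205 and 196 CPM in Parental, and PTPRC had none. Of 12 fibroblast markers 5 had one, with sums of 41.8 and 43.0 CPM in EM2, 57.0 and 45.4 CPM in E, and 41.4 and 34.4 CPM in Parental, and COL1A2 and LUM had none. Their part in the differences above was not tested.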

How the data were processed

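The authors deposited a table of raw counts, 1 column a library, over a shared set of regions. The submitters' processing notes name the build hg38 and the tools deepTools, featureCounts, MACS2 2.1.1, Picard, Bowtie2 2.2.6, cutadapt 1.9.1 and bcl2fastq 2.20.0.422, with no account of what each did. The way regions were merged is not stated there. Positions are as deposited. Columns were assigned to libraries by name and groups by the labels. The deposited peak lists were not used.

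Counts were scaled by TMM and tested with edgeR 4.0.16 (R 4.3.3) quasi-likelihood F tests with 1 mean for each of the 7 groups. The filterByExpr filter (minimum count 10) left 65771 regions. Adjusted p-values are Benjamini-Hochberg values over all regions tested, with 0.05 as the limit for a call. No new test was run after removal of a window median. A called region in a window with at least 20 regions was kept if the remaining difference had the same sign and exceeded 95% normal bounds from its SE. That rule is not adjusted for the number of regions and takes the window median as free of error. A fit without E replicate 1 assumes that the lone E library varies like the other groups. A clone was called further from Parental where the midpoint of EM2 and E differed from Parental in its direction.

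Regions were assigned to the nearest protein-coding gene start within 50 kb, or to the nearer gene end for the genes whose strand the RefSeq tables did not give; 79.1% had a strand. Of 492 genes in 26 lists, 438 had a region. Named are the 8 largest rises and 8 largest falls called with and without E replicate 1, with values that did not overlap, above-median signal and a gene within 10 kb; the smallest p per list and direction among such calls; the regions at the start or end of a panel of EMT genes; the regions of CHI3L1, LURAP1L and ADARB2; and 4 regions for each pattern relative to Parental. The members, lists and this rule were chosen with earlier results of these data known. Motifs were searched only in RefSeq promoter windows, since no genome sequence was used here. Some named regions and 1 list are not reported here. Alternatives were other scalings (loess offsets, DESeq2 size factors, library totals), all regions without a filter, DESeq2 1.42.0 with its Wald test, fewer groups, a limit of 1 on the log2 size, a replicate block, removal of 10 Mb window medians and leaving out each library.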

Additional observations from a re-analysis of the deposited data

How the results depend on the processing

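Scaling, the filter and the DESeq2 test changed the count of regions differing between EM2 and E little. Leaving out 1 library of EM2, E or Parental gave 5977 to 11565 regions (2782 to 4523 higher, 3195 to 7879 lower), 2173 to 7478 for EM2 against Parental and 1235 to 9269 for E against Parental; EM2 was further from Parental in 279 to 998 and E in 155 to 2058. The replicate numbers are shared by the groups and the labels do not say that they pair libraries; deviations of same-numbered libraries correlated at 0.38 between EM2 and E and at 0.02 to 0.59 over all pairs of groups. With the replicate block 17472 regions passed in EM2 against E, 8142 of them higher and 9330 lower, 10811 in EM2 against Parental and 13107 in E against Parental, and EM2 was further in 2376 and E in 2284. E was further in 1483 with the DESeq2 test and in 615 with the log2 limit of 1. With only the libraries of EM2, E and Parental it was further in 607, and 4478 regions differed between E and Parental. In that fit 8480 regions differed between EM2 and E, 3897 of them higher and 4583 lower in EM2. Windows of 5 Mb gave 40 at 0.5 or above and 25 at -0.5 or below. Within 5 kb of a gene start lay 21.4% of the higher and 15.7% of the lower regions. In regions called also without E replicate 1, promoters with the AP-1 motif were 6.38% of the higher, and of the lower 27.4% held CAGGTG, 0.256% the NF-kB motif and 0% the C/EBP motif.

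Of 75 named regions that were called, 55 kept direction and call under all 16 alternatives, and 74 kept them under the 3 other scalings. Many were named for being called with and without E replicate 1 and for a large change or a small p. For those, keeping the call without that library was set by the choice, and the other alternatives were eased by it. With window medians removed the EHF region at 34653810 turned to -0.0798 and the LURAP1L region at 12775714 to 0.0603; these are called regions in windows whose own medians were as large. Depth limits the low sites: with 8138944 to 12935538 counts in a library, values under 1 CPM rest on few counts.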
